A study of Mus musculus with 9 samples.

Results

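The colon of mice with colitis caused by dextran sulfate sodium (DSS) was compared with the colon of control mice across all genes of the deposited table. The 6 libraries of the comparison, among 9 in the series, were chosen by their group labels. The MC group held 3 C57BL/6 mice with DSS-induced colitis and a modelling period of 9 days, and the NC group held 3 C57BL/6 control mice without colitis. The labels name no allele or transgene, and each library came from 1 mouse drawn at random from its group. The remaining 3 libraries came from mice given DSS with an extract of Linderae Radix at 2.0 g/kg (LRWE). They entered the filter on low counts, the scaling and the estimate of the spread between mice, and no comparison here is made with them. The model is a chemical injury of intact mice, and RNA with poly(A) tails was taken from whole colon tissue, so each library mixes all cell types of the sample. Neither the labels nor the study's notes give the segment of colon or the age and sex of the mice. All 6 libraries carried transcripts of the Y-linked gene Ddx3y.

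DSS is a sulfated polymer that damages the lining of the colon when it is taken up with the drinking water, and the wall below the damaged lining becomes inflamed. The healthy lining takes up sodium, chloride, water and short-chain fatty acids, secretes mucus made of heavily glycosylated mucins, and is renewed from stem cells at the base of the crypts. Below it lie fibroblasts, immune cells, the nerve cells and glia of the gut, and smooth muscle. The series as a whole was set up, by its title, to ask about JAK/STAT signalling, in which receptors for cytokines activate JAK kinases and these activate STAT transcription factors.

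Levels are given as CPM, counts scaled to the library size with TMM factors and to a common total, for mouse 1, 2 and 3 of each group in that order, except where summed or averaged. The call of a gene rests on edgeR's quasi-likelihood test at an adjusted p under 0.05, with the Benjamini-Hochberg method over the 21767 genes tested, and values after ± are standard errors of the log2 fold change of MC over NC with 3 mice per group. Library totals ran from 59771026 to 61216850 counts in MC and from 61604692 to 64202896 in NC. All 15 genes of a list of colon epithelial identity were detected in both groups, which at this depth does not measure how much epithelium a sample held. Their summed levels were 16133, 8860 and 18425 CPM in MC libraries, against 16686, 16766 and 13109 CPM in NC libraries. MC 2 had the lowest sum. Whether the share of epithelium differed between the samples was not tested. On the first principal component of the 6 libraries (46.1% of the variance) the MC libraries lay between -97.5 and -68.3 and the NC libraries between 85.1 and 87.0. The second (20.2%) set MC 2, at -116.8, apart from MC 1 and MC 3, at 59.5 and 40.1, and MC 2 had the lowest quality weight of the 6 (0.385, against 1.15 to 2.29 in the other 5). The MC mice are given in order in every set of values, so a level that MC 2 sets apart can be seen there.

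Of the 21767 genes tested, 1386 (6.37%) were called, 618 higher (2.84%) and 768 lower (3.53%) in MC mice. Each count of called members of a gene list below is to be read against these shares. With library totals in place of TMM the median log2 fold change of all genes moved from -0.01 to 0.14, and the split was 783 higher and 539 lower. In 1382 of the called genes the 3 MC and 3 NC mice did not overlap, which was also so for 39.6% of all genes tested. The change was at least 2-fold for 426 of the higher and 507 of the lower genes and at least 4-fold for 183 and 161. Genes called higher took 5.50%, 5.07% and 5.19% of all CPM in MC libraries, against 1.81%, 1.95% and 1.9005% in NC libraries. Genes called lower took 4.46%, 5.06% and 4.57% in MC libraries, against 10.6%, 12.02% and 10.3% in NC libraries. Of 1577 genes over 100 CPM, 78 were called higher and 190 lower, while of 5832 genes between 1 and 10 CPM 131 were higher and 119 lower. Most called genes coded for proteins, with 587 higher and 667 lower of 16098, and pseudogenes had 8 higher and 56 lower of 1718.

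The spread of the LRWE libraries bears on these counts, because it enters the same estimate. A fit to the 6 MC and NC libraries alone called 2197 genes higher and 1584 lower (10.5% and 7.61% of 20825), and 1383 of the 1386 calls were among them, in the same direction. In the other direction, 235 calls (74 higher and 161 lower) held in each of the 9 fits that left out 1 library. Calls lost in such a fit are named below with the library. The plot of level against change shows all genes tested, and its diagonal lines hold genes with no count in 1 group, whose fitted change depends on the prior count.

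**Figure D1:**
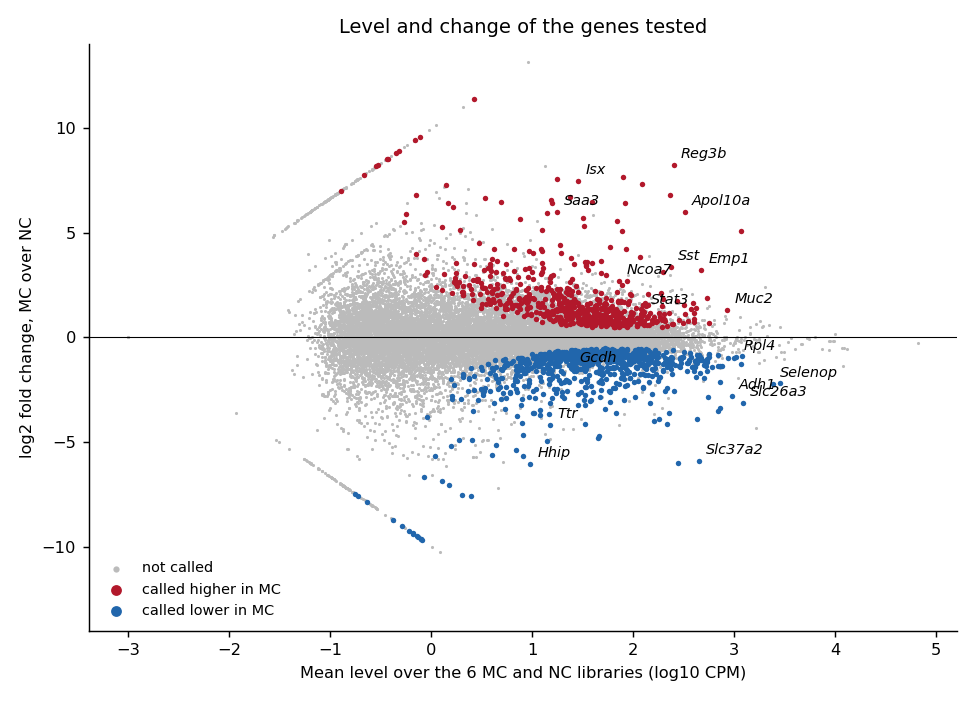
Each point is a gene tested, placed by its mean level over the 6 MC and NC libraries (log10 CPM) and its log2 fold change, MC over NC. Red points are the 618 genes called higher and blue points the 768 called lower in MC, and the called genes above 100 CPM lie mostly on the lower side.

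The genes with the smallest p among those that rose were a mixed set from acute-phase defence, lipid metabolism and signalling. Saa3, an acute-phase serum amyloid protein, had 32.6, 30.5 and 40.99 CPM in MC mice, against 0.435, 0.554 and 0.667 CPM in NC mice (log2 fold change 5.97 ± 0.37, adjusted p = 0.00119). Ncoa7, a nuclear receptor coactivator, had 124, 121 and 133 CPM in MC mice, against 19.4, 16.9 and 23.1 CPM in NC mice (log2 fold change 2.67 ± 0.18, adjusted p = 0.00119). Both were close to the same level in the 3 MC mice and far above every NC mouse. Ddah1, which breaks down a natural inhibitor of the nitric oxide synthases, had 54.1, 61.3 and 79.4 CPM in MC mice, against 7.03, 5.15 and 8.73 CPM in NC mice (log2 fold change 3.22 ± 0.24, adjusted p = 0.00145). Ak4, an adenylate kinase of mitochondria, had 49.5, 60.4 and 79.2 CPM in MC mice, against 5.95, 6.18 and 5.01 CPM in NC mice (log2 fold change 3.46 ± 0.29, adjusted p = 0.00165). For these genes, too, the highest NC mouse lay far below the lowest MC mouse. Gpat3, which adds the first fatty acid in triglyceride synthesis, had 28.9, 21.9 and 30.6 CPM in MC mice, against 3.27, 3.52 and 4.03 CPM in NC mice (log2 fold change 2.91 ± 0.21, adjusted p = 0.00145). Paqr8, a membrane progestin receptor, had 38.2, 46.7 and 55.6 CPM in MC mice, against 8.29, 11.5 and 11.9 CPM in NC mice (log2 fold change 2.15 ± 0.20, adjusted p = 0.00201). The kinase Cdc42bpa, which acts downstream of Cdc42, changed least of these but with the tightest groups, 79.6, 82.7 and 75.3 CPM in MC mice, against 33.003, 33.03 and 32.4 CPM in NC mice (log2 fold change 1.27 ± 0.13, adjusted p = 0.00316). The calls of Saa3, Ncoa7, Ddah1, Ak4, Gpat3, Paqr8 and Cdc42bpa held in each of the 9 fits that left out 1 library.

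Other genes rose far in all MC mice but by different amounts. Apol10a, of the apolipoprotein L family, had 756, 299 and 869 CPM in MC mice, against 15.3, 6.84 and 8.81 CPM in NC mice (log2 fold change 5.96 ± 0.52, adjusted p = 0.00165). Sptssb, a small subunit of the enzyme that starts sphingolipid synthesis, had 289.5, 63.7 and 375 CPM in MC mice, against 0.818, 1.68 and 1.9995 CPM in NC mice (log2 fold change 7.33 ± 0.76, adjusted p = 0.00401). MC 2 had the lowest level of both among the MC mice and still lay above all NC mice. Mgat4c, of a family that branches N-glycans, had 399.9, 188 and 470.4 CPM in MC mice, against 42.6, 35.7 and 43.1 CPM in NC mice (log2 fold change 3.12 ± 0.34, adjusted p = 0.00428). Emp1, an epithelial membrane protein, had 1048, 301 and 1219.9 CPM in MC mice, against 110.5, 90.4 and 74.97 CPM in NC mice (log2 fold change 3.22 ± 0.49, adjusted p = 0.00929). The same mouse, MC 2, was the lowest of the MC mice for these as well. Sppl2a, a protease that cuts proteins inside membranes, had 482, 414 and 543 CPM in MC mice, against 193, 159 and 138 CPM in NC mice (log2 fold change 1.55 ± 0.22, adjusted p = 0.00777). Clca4b, of a family linked to chloride channels, was instead highest in MC 2, with 60.997, 918 and 406 CPM in MC mice, against 5.501, 3.86 and 3.16 CPM in NC mice (log2 fold change 6.79 ± 1.47, adjusted p = 0.0308). The calls of Apol10a, Sptssb, Mgat4c and Sppl2a held in each of the 9 fits that left out 1 library. Emp1 lost its call without NC 2 (adjusted p = 0.0544). Clca4b lost its call without MC 2, MC 3 or any NC library (adjusted p 0.0526 to 0.138).

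Among abundant transcripts with smaller rises, Rgs5, a regulator of G-protein signalling found in pericytes, had 1103, 694 and 761 CPM in MC mice, against 237, 209 and 254 CPM in NC mice (log2 fold change 1.87 ± 0.42, adjusted p = 0.0343). Tmsb10, which binds actin monomers, had 656, 325 and 799 CPM in MC mice, against 205, 146 and 219 CPM in NC mice (log2 fold change 1.64 ± 0.39, adjusted p = 0.0405). Chd9, a chromatin remodeller, had 639, 277 and 718 CPM in MC mice, against 209.9, 194 and 226 CPM in NC mice (log2 fold change 1.37 ± 0.34, adjusted p = 0.0488). Ceacam2, a cell adhesion molecule of epithelium, had 699.7, 347 and 768 CPM in MC mice, against 298, 214 and 179 CPM in NC mice (log2 fold change 1.39 ± 0.35, adjusted p = 0.0489). In each of the 4 genes the MC mice lay above the NC mice, and MC 2 was the lowest MC mouse. Rgs5, Tmsb10, Chd9 and Ceacam2 lost their calls without MC 1, MC 3, any NC library or LRWE 3 (adjusted p 0.0574 to 0.172).

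The genes that fell with the smallest p included metabolic enzymes, receptors and signalling proteins. Acss2, which makes acetyl-CoA from acetate, had 23.01, 19.04 and 22.3 CPM in MC mice, against 73.9, 87.6 and 93.4 CPM in NC mice (log2 fold change -1.99 ± 0.16, adjusted p = 0.00165). Ttr, a carrier of thyroid hormone and of retinol-binding protein, had 1.23, 1.77 and 1.66 CPM in MC mice, against 24.3, 29.9 and 31.6 CPM in NC mice (log2 fold change -4.20 ± 0.33, adjusted p = 0.00165). In both, the 3 MC mice lay close together at a low level. Ttr is also a marker of liver and pancreas, and the 11 tested genes of a list of such markers had 2 called lower and none higher in edgeR (5 lower with DESeq2). Its 21 genes in the deposited table, tested or not, summed to 26.9, 62.4 and 53.1 CPM in MC libraries, against 339.6, 335 and 281 CPM in NC libraries. Whether those tissues had a part in the result was not tested. Hhip, a membrane protein that binds and restrains hedgehog ligands, had 0.1997, 0.264 and 0.382 CPM in MC mice, against 26.6, 18.4 and 11.3 CPM in NC mice (log2 fold change -6.05 ± 0.50, adjusted p = 0.00165). Fgfr3, a receptor for fibroblast growth factors, had 4.21, 2.69 and 2.41 CPM in MC mice, against 23.7, 26.7 and 29.9 CPM in NC mice (log2 fold change -3.11 ± 0.26, adjusted p = 0.00165). Every MC mouse lay far below every NC mouse for both of these membrane proteins. Retreg1, a receptor for autophagy of the endoplasmic reticulum, had 67.9, 70.1 and 45.4 CPM in MC mice, against 335, 409 and 319.7 CPM in NC mice (log2 fold change -2.54 ± 0.21, adjusted p = 0.00165). Itih5, a hyaluronan-binding protein of the matrix, had 70.7, 76.8 and 73.4 CPM in MC mice, against 314, 316 and 226 CPM in NC mice (log2 fold change -1.96 ± 0.16, adjusted p = 0.00165). Ttll6, which adds glutamate chains to tubulin, had 10.98, 10.1 and 13.2 CPM in MC mice, against 72.2, 81.5 and 95.5 CPM in NC mice (log2 fold change -2.86 ± 0.25, adjusted p = 0.00165). The calls of Acss2, Ttr, Hhip, Fgfr3, Retreg1, Itih5 and Ttll6 held in each of the 9 fits that left out 1 library.

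Sytl1, an effector of Rab27 in vesicle secretion, had 11.6, 16.2 and 22.04 CPM in MC mice, against 98.99, 109 and 97.6 CPM in NC mice (log2 fold change -2.62 ± 0.23, adjusted p = 0.00165). Sowahc had 15.4, 15.1 and 20.4 CPM in MC mice, against 92.3, 121 and 83.3 CPM in NC mice (log2 fold change -2.54 ± 0.22, adjusted p = 0.00165). Gcdh, an enzyme of lysine breakdown, had 12.2, 13.4 and 13.1 CPM in MC mice, against 36.3, 38.6 and 36.2 CPM in NC mice (log2 fold change -1.52 ± 0.15, adjusted p = 0.00311). The 3 genes were low in all MC mice. Klk1, tissue kallikrein, which releases kinins, had 190.1, 112 and 93.3 CPM in MC mice, against 977, 955 and 939.9 CPM in NC mice (log2 fold change -2.86 ± 0.28, adjusted p = 0.002899). Tspan1, a tetraspanin of epithelial membranes, had 222, 257 and 325 CPM in MC mice, against 1210.2, 1449.7 and 875 CPM in NC mice (log2 fold change -2.14 ± 0.24, adjusted p = 0.00437). The secreted selenium carrier Selenop had 1076, 599.8 and 878 CPM in MC mice, against 3837, 5077 and 2933 CPM in NC mice (log2 fold change -2.21 ± 0.30, adjusted p = 0.00713). The groups lay apart for these 3 as well. Prdx6, an antioxidant enzyme, had 456, 1669 and 990.3 CPM in MC mice, against 4935, 5557 and 3358 CPM in NC mice (log2 fold change -2.15 ± 0.47, adjusted p = 0.0324), with MC 2 the nearest to the NC mice. Ckmt1, the creatine kinase of mitochondria, had 559.6, 794 and 704 CPM in MC mice, against 1737, 1769.9 and 1388 CPM in NC mice (log2 fold change -1.25 ± 0.24, adjusted p = 0.0207). Slc25a5, the carrier that exchanges ADP for ATP across the inner mitochondrial membrane, had 364, 378 and 528 CPM in MC mice, against 1045, 1168 and 1011 CPM in NC mice (log2 fold change -1.34 ± 0.21, adjusted p = 0.00995). The calls of Sytl1, Sowahc, Gcdh, Klk1, Tspan1, Selenop and Slc25a5 held in each of the 9 fits that left out 1 library. Prdx6 lost its call without MC 1, MC 3 or any NC library (adjusted p 0.0617 to 0.108). Ckmt1 lost its call without MC 1, MC 3, NC 1 or NC 2 (adjusted p 0.0688 to 0.0856).

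**Figure D2:**
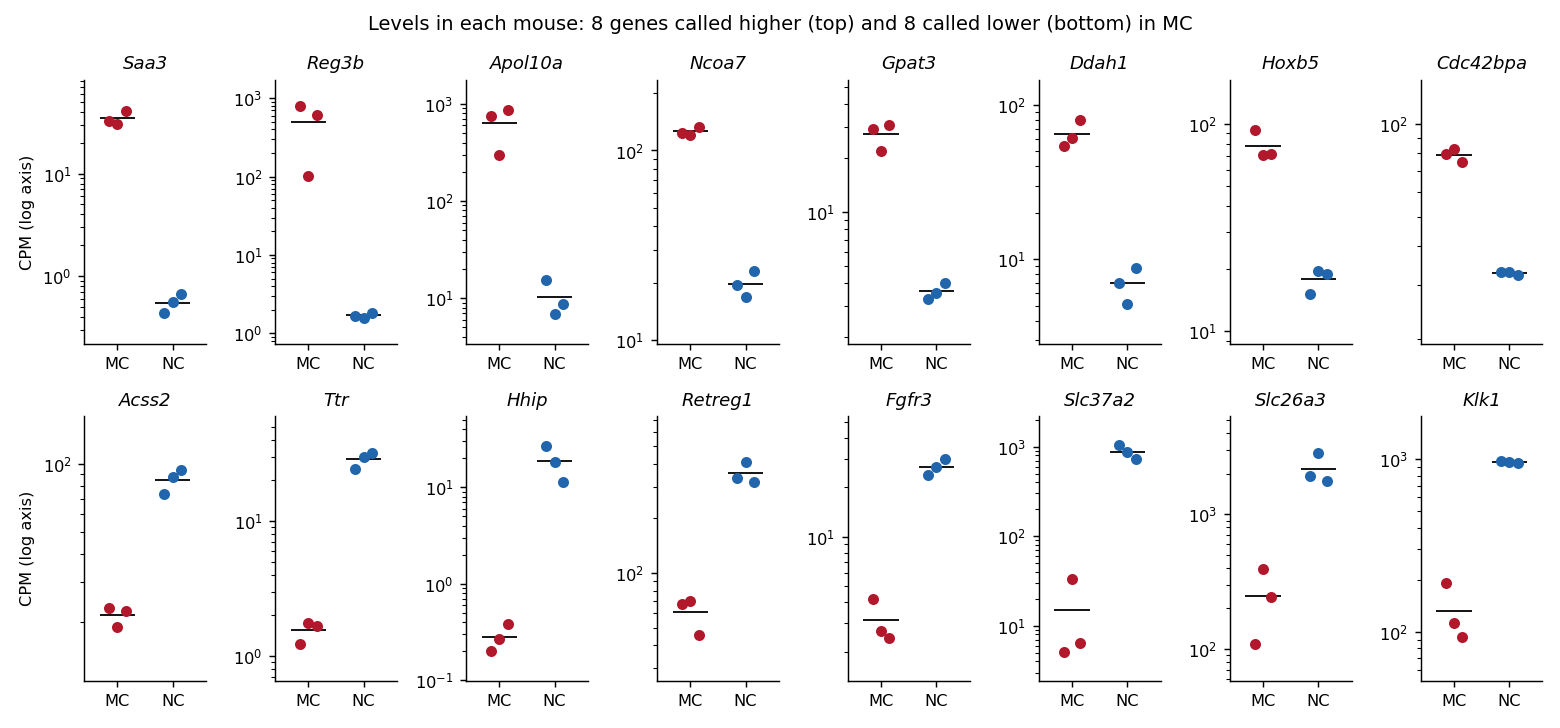
Each point is the level of a gene in 1 mouse (CPM, log axis), MC left and NC right, with a bar at the mean of 3 mice. In all 16 genes the MC and NC mice do not overlap, and among the genes drawn Reg3b and Slc37a2 spread widely among the MC mice.

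Antimicrobial and acute-phase genes had 6 called higher and 2 called lower of 34 tested, against 2.84% and 3.53% of all genes. The median log2 fold change was 1.15, against -0.01 for all genes tested. The summed levels of the 39 genes of this list in the deposited table overlapped between the groups. They were 13197, 18931 and 19538.5 CPM in MC libraries, against 24405, 22147 and 15087 CPM in NC libraries. Reg3b, a lectin that binds bacteria, had 787, 100.2 and 612 CPM in MC mice, against 1.65, 1.58 and 1.82 CPM in NC mice (log2 fold change 8.21 ± 0.83, adjusted p = 0.00355), with MC 2 well below the other MC mice and above all NC mice. Its relatives Reg3g (7.67 ± 0.90, adjusted p = 0.0044998) and Reg3a rose as well. Reg3a had no count in NC, had 0.952, 0.487 and 0.282 CPM in MC, and was at least 35.5-fold higher with the NC group set at 3 counts over its 3 libraries (adjusted p = 0.0126). The lower members were Wfdc2 and Reg4, which were chosen after their values were seen. Wfdc2, a secreted protease inhibitor, had 21.4, 60.2 and 41.1 CPM in MC mice, against 242, 199.7 and 184 CPM in NC mice (log2 fold change -2.35 ± 0.40, adjusted p = 0.0134). Reg4, a lectin of secretory cells, had 5.98, 0.459 and 3.82 CPM in MC mice, against 81.9, 96.6 and 87.8 CPM in NC mice (log2 fold change -4.70 ± 0.84, adjusted p = 0.0164). Within the Reg family, 3 members were thus called higher and 1 lower. Reg3 genes are close paralogues, and how the authors divided reads that match several of them is not stated. The calls of Reg3b, Reg3g and Reg3a held in each of the 9 fits that left out 1 library. Wfdc2 lost its call without MC 3 or NC 1 (adjusted p 0.0565 to 0.0599). Reg4 lost its call without MC 3, NC 1 or NC 2 (adjusted p 0.0588 to 0.0654).

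Promoters of 4 genes are shown because each holds the 9-base palindrome that STAT dimers bind, with any 3 bases in its centre (TTCNNNGAA, its own reverse complement). They are 2 leading genes that rose, 1 leading gene that fell, and Socs3, the feedback inhibitor that STAT3 induces. The search covered 34 named genes with a promoter. Paqr8, which rose, and Retreg1, which fell, also held the palindrome, at -207 and -87. Both have several promoter windows, only some of which hold it, and they are not shown. The 250 bases before the start of each gene are given 5′ to 3′ on the gene's strand, from RefSeq on GRCm38.p6, with the palindrome in capitals. It begins at position -129 from the start in Reg3b, -241 in Apol10a, -232 in Gcdh and -154 in Socs3.
Reg3b, chr6:78370635-78370884, plus strand: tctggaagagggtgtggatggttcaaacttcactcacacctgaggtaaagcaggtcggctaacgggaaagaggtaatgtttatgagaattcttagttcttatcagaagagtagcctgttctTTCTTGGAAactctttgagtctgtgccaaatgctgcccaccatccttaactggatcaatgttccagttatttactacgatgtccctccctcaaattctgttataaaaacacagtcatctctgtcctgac
Apol10a, chr15:77476797-77477046, plus strand: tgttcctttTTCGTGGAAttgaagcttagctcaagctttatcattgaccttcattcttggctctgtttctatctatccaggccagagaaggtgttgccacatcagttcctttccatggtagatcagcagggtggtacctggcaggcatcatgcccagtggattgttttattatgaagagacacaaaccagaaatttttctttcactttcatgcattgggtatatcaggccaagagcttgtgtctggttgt
Gcdh, chr8:84893922-84894171, minus strand: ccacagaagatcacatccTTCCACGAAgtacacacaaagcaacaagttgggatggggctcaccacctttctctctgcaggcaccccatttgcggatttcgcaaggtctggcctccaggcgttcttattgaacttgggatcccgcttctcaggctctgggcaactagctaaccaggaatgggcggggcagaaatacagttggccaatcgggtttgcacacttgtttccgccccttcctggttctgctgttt
Socs3, chr11:117969367-117969616, minus strand: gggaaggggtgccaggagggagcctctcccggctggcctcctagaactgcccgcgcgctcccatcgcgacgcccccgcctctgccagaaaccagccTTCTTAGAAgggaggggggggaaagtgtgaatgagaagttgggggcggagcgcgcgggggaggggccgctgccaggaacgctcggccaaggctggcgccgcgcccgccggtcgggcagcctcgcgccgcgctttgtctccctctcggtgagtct

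A promoter window of 300 bases (250 before and 50 after the start) was found in RefSeq for 444 of the 618 genes called higher, 540 of the 768 called lower and 13882 of all tested, some of them with several windows. The STAT palindrome was present in 40 of 628 promoters of higher genes (6.37%), 37 of 682 of lower genes (5.43%) and 1250 of 17586 of all genes tested (7.11%), and in 8.30% of all windows of the table. The AP-1 site TGANTCA, searched on both strands like the motifs that follow, was in 7.80%, 5.57% and 5.93% of promoters in the same order. The CDX site TTTATNG was in 8.92%, 8.36% and 7.55%, and the HNF4 site CAAAGTNCA in 1.75%, 1.76% and 1.27%. The NF-kB site, a motif of 10 letters, was in 0.159%, 0.440% and 0.483%. The motifs were searched separately, so matches may overlap. The STAT palindrome was thus no more frequent in the promoters of called genes than in those of all genes tested. A match is not evidence of binding, and a missing match speaks only of this window.

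Transport of ions and water, the main task of the colon lining, had 13 of 39 tested members called lower and 3 higher, with a median log2 fold change of -0.56. Summed over the list, levels were 4437, 5137 and 5987 CPM in MC libraries, against 11123, 14009 and 10374 CPM in NC libraries. In bulk tissue, fewer cells of a type and less RNA per cell cannot be told apart. The segment of colon is not stated, so a difference in the position sampled cannot be told apart from an effect of DSS either. Slc26a3, which exchanges chloride for bicarbonate, had 109, 392 and 244 CPM in MC mice, against 1915, 2840.3 and 1779 CPM in NC mice (log2 fold change -3.13 ± 0.43, adjusted p = 0.00723). Slc26a2, a sulfate transporter that feeds mucin sulfation, had 176, 224 and 222 CPM in MC mice, against 731, 876 and 808 CPM in NC mice (log2 fold change -1.96 ± 0.18, adjusted p = 0.00213). MC 1 was the lowest of the MC mice for both. The phosphate transporter Slc20a1 had 85.2, 197 and 99.8 CPM in MC mice, against 1345, 1460.4 and 1183 CPM in NC mice (log2 fold change -3.38 ± 0.40, adjusted p = 0.00451). Best2, a bicarbonate channel of goblet cells, had 5.21, 7.13 and 3.92 CPM in MC mice, against 27.5, 30.7 and 32.1 CPM in NC mice (log2 fold change -2.47 ± 0.27, adjusted p = 0.00428). Genes of sodium uptake went both ways. The sodium channel subunit Scnn1a had 19.2, 45.1 and 46.6 CPM in MC mice, against 136, 142 and 76.5 CPM in NC mice (log2 fold change -1.68 ± 0.37, adjusted p = 0.0327). Its partner Scnn1b had 2.84, 4.23 and 2.42 CPM in MC mice, against 8.32, 8.07 and 7.25 CPM in NC mice (log2 fold change -1.31 ± 0.30, adjusted p = 0.0371). Nr3c2, the aldosterone receptor that drives the channel, had 47.1, 33.5 and 51.2 CPM in MC mice, against 110.4, 123 and 74.4 CPM in NC mice (log2 fold change -1.22 ± 0.27, adjusted p = 0.0344). All 3 were lower in every MC mouse than in every NC mouse. In contrast, the sodium-proton exchanger Slc9a3 had 219, 138 and 317 CPM in MC mice, against 35.9, 40.6 and 81.4 CPM in NC mice (log2 fold change 2.09 ± 0.40, adjusted p = 0.0195), with no overlap. The choice of Scnn1a, Slc9a3 and Nr3c2 was made after seeing their values. The calls of Slc26a3, Slc26a2, Slc20a1 and Best2 held in each of the 9 fits that left out 1 library. Scnn1a lost its call without any MC library, NC 1 or NC 2 (adjusted p 0.0505 to 0.123). Scnn1b lost its call without MC 1, MC 3, any NC library or LRWE 3 (adjusted p 0.0568 to 0.139). Nr3c2 lost its call without any MC library, NC 1, NC 2 or LRWE 3 (adjusted p 0.0579 to 0.126). Slc9a3 lost its call without MC 1, MC 3, NC 1 or NC 2 (adjusted p 0.0544 to 0.09599).

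Genes of 3 potassium channel subunits, chosen after their values were seen, fell. Kcnn4, a channel opened by calcium, had 7.08, 3.103 and 7.74 CPM in MC mice, against 21.5, 23.6 and 27.96 CPM in NC mice (log2 fold change -2.03 ± 0.33, adjusted p = 0.01201). Kcne3 had 7.604, 17.8 and 13.6 CPM in MC mice, against 61.05, 62.5 and 68.5 CPM in NC mice (log2 fold change -2.30 ± 0.38, adjusted p = 0.0131). Its partner Kcnq1 had 11.6, 2.6999 and 7.84 CPM in MC mice, against 20.9, 34.02 and 34.1 CPM in NC mice (log2 fold change -2.01 ± 0.49, adjusted p = 0.0464). Both subunits of this basolateral channel were thus low in all MC mice. Of the beta subunits of the sodium pump, Atp1b1 had 802, 821 and 921 CPM in MC mice, against 1549, 1779 and 1337 CPM in NC mice (log2 fold change -0.87 ± 0.21, adjusted p = 0.0416). Atp1b3, also chosen after its values were seen, had 96.1, 117 and 82.5 CPM in MC mice, against 68.2, 57.3 and 62.2 CPM in NC mice (log2 fold change 0.65 ± 0.15, adjusted p = 0.0396). These 2 beta subunits changed in opposite directions with no overlap between the groups. Of 14 carbonic anhydrases, which make bicarbonate from carbon dioxide, Car12 and Car8 rose and none fell in edgeR (5 rose and 1 fell with DESeq2). Car12 had 49.9, 21.97 and 49.6 CPM in MC mice, against 5.22, 6.07 and 7.97 CPM in NC mice (log2 fold change 2.66 ± 0.32, adjusted p = 0.00461). Car8, which lacks enzyme activity, had 33.3, 11.9 and 16.3 CPM in MC mice, against 3.69, 3.798 and 4.08 CPM in NC mice (log2 fold change 2.41 ± 0.45, adjusted p = 0.0189). The call of Car12 held in each of the 9 fits that left out 1 library. Kcnn4 lost its call without NC 2 (adjusted p = 0.0562). Kcne3 lost its call without MC 3, NC 1 or NC 2 (adjusted p 0.0509 to 0.0529). Kcnq1 lost its call without MC 1, MC 3, any NC library or LRWE 3 (adjusted p 0.0528 to 0.154). Atp1b1 lost its call without any MC library, any NC library or LRWE 3 (adjusted p 0.0631 to 0.134). Atp1b3 lost its call without MC 1, MC 2, any NC library or LRWE 3 (adjusted p 0.0669 to 0.159). Car8 lost its call without any NC library (adjusted p 0.0715 to 0.09702).

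Of 8 mucin genes tested, Muc2 and Muc3a were called, both higher. The summed levels of the 12 mucin genes of the deposited table overlapped between MC and NC libraries. Muc2, the gel-forming mucin of colon mucus, had 1781, 784 and 1097 CPM in MC mice, against 514, 422 and 545 CPM in NC mice (log2 fold change 1.31 ± 0.29, adjusted p = 0.0339). Muc3a, a membrane mucin, had 502, 106 and 312 CPM in MC mice, against 54.2, 62.4 and 94.8 CPM in NC mice (log2 fold change 2.12 ± 0.48, adjusted p = 0.036003). MC 1 was the highest and MC 2 the lowest MC mouse for both, and all MC mice lay above all NC mice. In mucin-type glycosylation, 5 of 41 tested members fell and 2 rose, and with library totals for scaling it was 5 and 4. Gcnt1, which starts a core branch of mucin glycans, had 44.1, 37.9 and 33.6 CPM in MC mice, against 180.4, 164 and 98.7 CPM in NC mice (log2 fold change -1.94 ± 0.24, adjusted p = 0.00521). Fut4, a fucosyltransferase, had 4.7004, 11.7 and 6.43 CPM in MC mice, against 44.04, 62.5 and 42.9 CPM in NC mice (log2 fold change -2.71 ± 0.35, adjusted p = 0.00564). St3gal1, which caps core glycans with sialic acid, rose instead, with 34.4, 48.1 and 47.3 CPM in MC mice, against 4.94, 5.21 and 8.76 CPM in NC mice (log2 fold change 2.78 ± 0.36, adjusted p = 0.00548). The other called members beside Slc26a2 were B4galnt3 (-2.88 ± 0.40, adjusted p = 0.00718), St6galnac2 (-1.96 ± 0.37, adjusted p = 0.0195) and Galnt1 (0.54 ± 0.12, adjusted p = 0.0339), chosen after their values were seen. The goblet cell list had 4 of 25 lower and 2 higher, and with library totals 4 lower and 5 higher. Creb3l1, a transcription factor of secretory cells, had 17.02, 16.7 and 24.7 CPM in MC mice, against 56.1, 48.2 and 48.7 CPM in NC mice (log2 fold change -1.39 ± 0.19, adjusted p = 0.00713). Atp2c2, a calcium pump of the secretory pathway, had 16.97, 17.4 and 10.6 CPM in MC mice, against 31.7, 34.7 and 37.2 CPM in NC mice (log2 fold change -1.20 ± 0.21, adjusted p = 0.0149). Agr2, a protein disulfide isomerase needed for mucin folding, had 93.7, 75.7 and 111 CPM in MC mice, against 211, 172 and 207 CPM in NC mice (log2 fold change -1.07 ± 0.20, adjusted p = 0.0189). The calls of Gcnt1, Fut4, St3gal1, B4galnt3 and Creb3l1 held in each of the 9 fits that left out 1 library. Muc2 and Muc3a lost their calls without MC 1, MC 3, any NC library or LRWE 3 (adjusted p 0.0574 to 0.149). St6galnac2 and Agr2 lost their calls without MC 1 or any NC library (adjusted p 0.0516 to 0.0809). Galnt1 lost its call without any MC library, any NC library or LRWE 3 (adjusted p 0.0603 to 0.123). Atp2c2 lost its call without any NC library (adjusted p 0.0577 to 0.06696).

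Genes of cholesterol synthesis were among those most often called higher. Of 38 genes of cholesterol synthesis and uptake tested, 12 were called higher and 3 lower, and the median log2 fold change was 0.50. Srebf2, the transcription factor that drives the pathway, had 194, 171 and 167 CPM in MC mice, against 80.9, 78.4 and 73.3 CPM in NC mice (log2 fold change 1.19 ± 0.17, adjusted p = 0.00769). Its level was close to even among the MC mice. Along the pathway, Fdps, which makes farnesyl diphosphate, had 46.9, 62.7 and 74.3 CPM in MC mice, against 21.7, 19.1 and 23.9 CPM in NC mice (log2 fold change 1.51 ± 0.21, adjusted p = 0.00763). Hsd17b7, a later enzyme, had 17.3, 18.6 and 18.9 CPM in MC mice, against 5.26, 6.78 and 6.49 CPM in NC mice (log2 fold change 1.56 ± 0.19, adjusted p = 0.00461). All MC mice lay above all NC mice for both enzymes. Other called enzymes included Fdft1, Idi1, Lss, Sqle, Cyp51 and Hmgcs1, with log2 fold changes from 1.15 to 1.59. The 3 members that fell included Insig1, which holds the SREBP factors in check, with 32.8, 40.97 and 41.2 CPM in MC mice, against 95.5, 139 and 92.9 CPM in NC mice (log2 fold change -1.51 ± 0.20, adjusted p = 0.00564). The enzyme Ebp had 29.7, 30.2 and 42.7 CPM in MC mice, against 91.3, 90.9 and 94.7 CPM in NC mice (log2 fold change -1.43 ± 0.21, adjusted p = 0.00857). The sterol receptor Nr1h3 also fell (log2 fold change -0.67 ± 0.16, adjusted p = 0.0444). Ebp, Nr1h3, Fdft1, Idi1, Lss, Sqle, Cyp51 and Hmgcs1 were chosen after their values were seen. The counts were 11 to 13 higher and 2 to 4 lower under the other scalings tried. The calls of Srebf2, Fdps, Hsd17b7, Insig1 and Ebp held in each of the 9 fits that left out 1 library. Fdft1 lost its call without NC 1 or NC 3 (adjusted p 0.0572 to 0.0686). Idi1 lost its call without any NC library (adjusted p 0.0589 to 0.0691). Lss and Sqle lost their calls without MC 3 or any NC library (adjusted p 0.05304 to 0.0946). Cyp51 and Hmgcs1 lost their calls without MC 1, MC 3 or any NC library (adjusted p 0.0699 to 0.1499). Nr1h3 lost its call without any MC library, any NC library or LRWE 3 (adjusted p 0.0546 to 0.158).

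Of 36 genes in a list of fatty acid and triglyceride synthesis, which also holds the breakdown enzyme Mgll, 6 rose and 3 fell. Lpin2, which makes the diacylglycerol for triglycerides, had 188, 77.98 and 184 CPM in MC mice, against 23.6, 20.9 and 25.4 CPM in NC mice (log2 fold change 2.69 ± 0.31, adjusted p = 0.00443). Mgll, which releases the last fatty acid from monoglycerides, had 161, 100.4 and 186 CPM in MC mice, against 40.3, 32.3 and 35.1 CPM in NC mice (log2 fold change 2.05 ± 0.25, adjusted p = 0.00461). MC 2 was the lowest MC mouse for both. Acacb, which makes malonyl-CoA at mitochondria, had 53.2, 58.6 and 54.9 CPM in MC mice, against 18.5, 18.96 and 30.2 CPM in NC mice (log2 fold change 1.3 ± 0.25, adjusted p = 0.0214). The elongase Elovl7 fell, with 22.1, 26.1 and 34.2 CPM in MC mice, against 69.7, 68.5 and 50.8 CPM in NC mice (log2 fold change -1.20 ± 0.23, adjusted p = 0.0207). In fatty acid oxidation and ketogenesis 2 of 48 rose and 4 fell, against 2.84% higher and 3.53% lower of all genes, and the median log2 fold change was -0.03. Besides Acss2, Slc16a1, the monocarboxylate transporter that brings in butyrate, had 168, 213 and 228 CPM in MC mice, against 444, 557 and 423 CPM in NC mice (log2 fold change -1.23 ± 0.23, adjusted p = 0.0195). Acsm3, which activates medium-chain fatty acids, had 7.204, 4.93 and 25.1 CPM in MC mice, against 114, 103 and 100.2 CPM in NC mice (log2 fold change -3.09 ± 0.59, adjusted p = 0.01996). Fabp2, the fatty acid binding protein of enterocytes, was far above the NC mice in MC 1 and MC 3 and within their range in MC 2, with 283, 17.95 and 351 CPM in MC mice, against 13.1, 13.04 and 19.4 CPM in NC mice (log2 fold change 3.84 ± 0.86, adjusted p = 0.0347). The calls of Lpin2 and Mgll held in each of the 9 fits that left out 1 library. Acacb and Slc16a1 lost their calls without MC 1, MC 3, NC 1 or NC 2 (adjusted p 0.0542 to 0.122). Elovl7 lost its call without MC 1, MC 2, NC 1 or NC 2 (adjusted p 0.0527 to 0.0905). Acsm3 lost its call without MC 1 or any NC library (adjusted p 0.0572 to 0.07901). Fabp2 lost its call without MC 1, MC 3, any NC library or LRWE 3 (adjusted p 0.0607 to 0.146).

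In the tricarboxylic acid cycle and its side reactions 5 of 29 genes fell and 1 rose, and 3 fell and 1 rose with library totals. Suclg1, a subunit of succinyl-CoA ligase, had 79.4, 57.1 and 84.4 CPM in MC mice, against 191, 181 and 161 CPM in NC mice (log2 fold change -1.27 ± 0.18, adjusted p = 0.00777). Idh3a, a subunit of isocitrate dehydrogenase, had 70.6, 53.4 and 67.5 CPM in MC mice, against 151, 133 and 130.1 CPM in NC mice (log2 fold change -1.11 ± 0.18, adjusted p = 0.0113). Pck1, which starts gluconeogenesis, had 40.95, 16.5 and 17.8 CPM in MC mice, against 142, 196 and 209 CPM in NC mice (log2 fold change -2.86 ± 0.54, adjusted p = 0.0191). The MC mice lay below the NC mice in each. Me1, the malic enzyme of the cytosol that makes NADPH, rose, with 65.97, 53.01 and 64.3 CPM in MC mice, against 26.7, 21.2 and 25.7 CPM in NC mice (log2 fold change 1.32 ± 0.16, adjusted p = 0.00461). Of 61 nuclear genes for subunits of oxidative phosphorylation, Ndufb2 alone was called (-0.70 ± 0.15, adjusted p = 0.0324, lower), although in 22 the MC mice all lay below the NC mice, against 20.1% of all genes. With the 6 MC and NC libraries alone 10 were called lower. The most abundant member in NC mice, Cox4i1, had 683, 377 and 676 CPM in MC mice, against 565, 539 and 520.1 CPM in NC mice (log2 fold change 0.10 ± 0.32, adjusted p = 0.8897), with overlapping groups. The calls of Suclg1 and Me1 held in each of the 9 fits that left out 1 library. Idh3a lost its call without NC 1 (adjusted p = 0.0588). Pck1 lost its call without MC 2, MC 3 or any NC library (adjusted p 0.0504 to 0.0763). Ndufb2 lost its call without any MC library, any NC library or LRWE 3 (adjusted p 0.0567 to 0.147).

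Most genes for ribosomal proteins fell. Of 66 genes for cytosolic ribosomal proteins, 46 were called lower and none higher in edgeR, where 3.53% of all genes tested were lower. In 65 of the 66 all MC mice lay below all NC mice, against 20.1% of all genes. The median log2 fold change was -0.99, and between -1.03 and -0.86 under the other scalings. Summed levels were 16297, 13614 and 17852 CPM in MC libraries, against 33589.9, 30211 and 32386 CPM in NC libraries. Rpl5, a protein of the large subunit, had 279, 297 and 316 CPM in MC mice, against 747, 735 and 786 CPM in NC mice (log2 fold change -1.35 ± 0.15, adjusted p = 0.00437). Rpl9 had 131, 152 and 158 CPM in MC mice, against 364, 375 and 367 CPM in NC mice (log2 fold change -1.33 ± 0.15, adjusted p = 0.00443). Rpl12 had 202, 179.5 and 217 CPM in MC mice, against 618, 562 and 648 CPM in NC mice (log2 fold change -1.61 ± 0.19, adjusted p = 0.00443). The 3 MC mice were close together in each. These genes have many processed pseudogenes that can share their reads. Rpl4, also of the large subunit, had 741, 617 and 778 CPM in MC mice, against 1448, 1352 and 1326 CPM in NC mice (log2 fold change -0.95 ± 0.21, adjusted p = 0.0316). The calls of Rpl5, Rpl9 and Rpl12 held in each of the 9 fits that left out 1 library. Rpl4 lost its call without any MC library, any NC library or LRWE 3 (adjusted p 0.05602 to 0.121).

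The factors that load the ribosome fell in part. Of 48 translation factors, 11 were lower and 2 higher, with 8 and 3 when scaled by library totals. Subunits of the initiation factor eIF3 were among them. Eif3l had 48.1, 59.02 and 52.5 CPM in MC mice, against 105, 98.9 and 103 CPM in NC mice (log2 fold change -0.94 ± 0.14, adjusted p = 0.00822). Eif3h had 149, 129 and 149.6 CPM in MC mice, against 304, 299 and 268 CPM in NC mice (log2 fold change -1.03 ± 0.15, adjusted p = 0.00929). Eif3e had 102, 84.6 and 94.03 CPM in MC mice, against 171, 164 and 157 CPM in NC mice (log2 fold change -0.81 ± 0.14, adjusted p = 0.0133). The groups of MC and NC mice lay apart in each. The elongation factor subunit Eef1d had 90.2, 77.002 and 87.2 CPM in MC mice, against 182, 173 and 163 CPM in NC mice (log2 fold change -1.03 ± 0.17, adjusted p = 0.0127). For mitochondrial ribosomal proteins, 3 of 77 were called, all lower, a share near the 3.53% of all genes: Mrpl30 (-0.85 ± 0.19), Mrps24 (-1.02 ± 0.23) and Mrpl9 (-0.63 ± 0.15, adjusted p = 0.0419), and the median log2 fold change of the list was -0.32. In 46 of the 77 all MC mice lay below all NC mice, against 20.1% of all genes, and the fit to the 6 MC and NC libraries called 12 lower and none higher. The calls of Eif3l and Eif3h held in each of the 9 fits that left out 1 library. Eif3e lost its call without MC 3, NC 1 or NC 2 (adjusted p 0.0513 to 0.0689). Eef1d lost its call without NC 1 (adjusted p = 0.0639). Mrpl30 and Mrps24 lost their calls without any MC library or any NC library (adjusted p 0.0754 to 0.134). Mrpl9 lost its call without any MC library, any NC library or LRWE 3 (adjusted p 0.0681 to 0.141).

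Detoxifying enzymes fell more often than they rose. Of 74 genes of xenobiotic metabolism and efflux tested, 12 were lower and 1 was higher, with a median log2 fold change of -0.41. The cytochrome P450 Cyp2c68 had 6.31, 10.4 and 14.2 CPM in MC mice, against 113, 131 and 127 CPM in NC mice (log2 fold change -3.58 ± 0.49, adjusted p = 0.00679). Cyp4f16 had 60.1, 31.05 and 66.9 CPM in MC mice, against 180.4, 184 and 174 CPM in NC mice (log2 fold change -1.77 ± 0.28, adjusted p = 0.0102). The glutathione transferase Gstm1 had 105, 100.3 and 94.8 CPM in MC mice, against 269, 208 and 221 CPM in NC mice (log2 fold change -1.22 ± 0.17, adjusted p = 0.00762). Gstt1 had 22.8, 20.8 and 16.3 CPM in MC mice, against 45.6, 44.2 and 45.4 CPM in NC mice (log2 fold change -1.17 ± 0.17, adjusted p = 0.00866). All MC mice were below all NC mice in these 4. The 1 higher member, Cyp2c65, chosen after its values were seen, was high in MC 1 and MC 3 and near the NC level in MC 2, with 269, 10.7 and 207 CPM in MC mice, against 9.63, 8.98 and 7.27 CPM in NC mice (log2 fold change 4.23 ± 0.93, adjusted p = 0.0326). P450 and glutathione transferase genes stand in families of close paralogues, so reads can be shared between members. The calls of Cyp2c68, Cyp4f16, Gstm1 and Gstt1 held in each of the 9 fits that left out 1 library. Cyp2c65 lost its call without MC 1, MC 3, any NC library or LRWE 3 (adjusted p 0.0564 to 0.133).

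Retinoid metabolism had 4 of 40 genes higher and 5 lower. Besides Ttr, the alcohol dehydrogenase Adh1, which oxidises retinol, had 140.4, 366 and 199.8 CPM in MC mice, against 1744, 1894 and 1332 CPM in NC mice (log2 fold change -2.82 ± 0.35, adjusted p = 0.00521). Isx, an intestinal homeobox factor known to repress the carotene-cleaving enzyme Bco1, had 104, 15.4 and 51.2 CPM in MC mice, against 0.279, 0.261 and 0.428 CPM in NC mice (log2 fold change 7.45 ± 0.78, adjusted p = 0.00419), with MC 2 the lowest MC mouse. Bco1 itself had 0.737, 0.7098 and 1.18 CPM in MC mice, against 2.72, 3.598 and 3.54 CPM in NC mice (log2 fold change -1.91 ± 0.41, adjusted p = 0.0294). Its mitochondrial relative Bco2 had 13.99, 10.5 and 15.2 CPM in MC mice, against 33.5, 33.2 and 32.2 CPM in NC mice (log2 fold change -1.32 ± 0.20, adjusted p = 0.0102). Isx was thus high and both cleaving enzymes low in every MC mouse. Dhrs9, a short-chain dehydrogenase of retinol, had 10.3, 20.5 and 39.9 CPM in MC mice, against 1.15, 1.54 and 1.301 CPM in NC mice (log2 fold change 4.15 ± 0.56, adjusted p = 0.00695). The cellular retinol binding protein Rbp2 had 10.1, 7.63 and 15.5 CPM in MC mice, against 56.5, 74.04 and 41.6 CPM in NC mice (log2 fold change -2.37 ± 0.38, adjusted p = 0.01103). The receptors Rarg and Rxra, the ligand-activated factors of the pathway, also rose, with log2 fold changes of 0.86 ± 0.17 and 0.74 ± 0.17 (adjusted p = 0.02095 and 0.0341). Bco1, Bco2, Rbp2, Rarg and Rxra were chosen after their values were seen. The calls of Adh1, Isx, Dhrs9 and Rbp2 held in each of the 9 fits that left out 1 library. Bco1 lost its call without any MC library or any NC library (adjusted p 0.0598 to 0.132). Bco2 lost its call without NC 1 (adjusted p = 0.0529). Rarg lost its call without MC 1, MC 3, NC 1 or NC 2 (adjusted p 0.0681 to 0.09796). Rxra lost its call without MC 1, MC 3, any NC library or LRWE 3 (adjusted p 0.059996 to 0.1299).

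Iron genes had 4 of 29 higher and none lower in edgeR (7 higher and 1 lower with DESeq2). Alas1, the first enzyme of heme synthesis, had 109.7, 109.9 and 147 CPM in MC mice, against 38.03, 44.2 and 32.8 CPM in NC mice (log2 fold change 1.67 ± 0.28, adjusted p = 0.0133). Slc39a14, an importer of iron and zinc, had 48.9, 62.1 and 31.6 CPM in MC mice, against 19.4, 19.99 and 22.2 CPM in NC mice (log2 fold change 1.21 ± 0.23, adjusted p = 0.0207). Steap4, a metal reductase induced in inflammation, had 17.3, 112 and 55.3 CPM in MC mice, against 5.54, 4.49 and 5.35 CPM in NC mice (log2 fold change 3.59 ± 0.78, adjusted p = 0.0311). MC 2 was the highest MC mouse for the reductase and the importer. Fbxl5, the iron-sensing ligase subunit, had 117, 78.2 and 119 CPM in MC mice, against 61.5, 58.7 and 61.6 CPM in NC mice (log2 fold change 0.79 ± 0.19, adjusted p = 0.0459). In polyamine and arginine metabolism 2 of 31 rose, Ddah1 and the inducible nitric oxide synthase Nos2, and 1 fell. Of all genes tested 2.84% were higher and 3.53% lower. Nos2 had 36.6, 216 and 150.5 CPM in MC mice, against 3.29, 3.11 and 2.16 CPM in NC mice (log2 fold change 5.56 ± 1.32, adjusted p = 0.0418), with MC 2 the highest. Aoc1, the oxidase that destroys histamine and putrescine, had 109.8, 40.3 and 73.1 CPM in MC mice, against 486, 495 and 332 CPM in NC mice (log2 fold change -2.56 ± 0.39, adjusted p = 0.00943). The call of Aoc1 held in each of the 9 fits that left out 1 library. Alas1 lost its call without NC 1 or NC 3 (adjusted p 0.0579 to 0.0689). Slc39a14 lost its call without MC 1 or any NC library (adjusted p 0.06499 to 0.101). Steap4 lost its call without MC 2, MC 3 or any NC library (adjusted p 0.06005 to 0.136). Fbxl5 lost its call without MC 1, MC 3, any NC library or LRWE 3 (adjusted p 0.0752 to 0.153). Nos2 lost its call without any MC library or any NC library (adjusted p 0.0592 to 0.162).

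Amino acid transport and one-carbon genes had 4 of 39 higher and 4 lower, against 2.84% higher and 3.53% lower of all genes. Slc3a1, part of the cystine transporter, had 30.8, 6.92 and 69.7 CPM in MC mice, against 1.41, 2.38 and 1.19 CPM in NC mice (log2 fold change 4.43 ± 0.74, adjusted p = 0.0127), with MC 2 the lowest MC mouse. Slc1a5, the glutamine transporter, fell, with 70.3, 58.3 and 45.9 CPM in MC mice, against 137, 149 and 183 CPM in NC mice (log2 fold change -1.42 ± 0.27, adjusted p = 0.0206). Of the folate enzymes, Shmt1 of the cytosol had 5.96, 3.702 and 9.78 CPM in MC mice, against 25.6, 24.9 and 24.5 CPM in NC mice (log2 fold change -1.95 ± 0.35, adjusted p = 0.0173). Aldh1l1 had 18.3, 34.3 and 37.6 CPM in MC mice, against 79.7, 79.9 and 77.8 CPM in NC mice (log2 fold change -1.40 ± 0.26, adjusted p = 0.0191). Both folate enzymes were lower in every MC mouse than in every NC mouse. Mthfd2, a mitochondrial folate enzyme, rose (log2 fold change 1.67 ± 0.37, adjusted p = 0.0344), as did the asparagine synthetase Asns (log2 fold change 1.23 ± 0.28, adjusted p = 0.0378). Mthfd2 and Asns were chosen after their values were seen. In the lysosome list 4 of 42 rose and 3 fell, against the same shares of all genes. The membrane protein Scarb2 had 134, 135 and 148 CPM in MC mice, against 56.7, 65.99 and 61.4 CPM in NC mice (log2 fold change 1.18 ± 0.14, adjusted p = 0.0044998). Ctsh, a cathepsin, had 22.1, 25.6 and 25.5 CPM in MC mice, against 47.8, 55.7 and 62.7 CPM in NC mice (log2 fold change -1.18 ± 0.15, adjusted p = 0.00514). The calls of Scarb2 and Ctsh held in each of the 9 fits that left out 1 library. Slc3a1 and Aldh1l1 lost their calls without any NC library (adjusted p 0.05698 to 0.0815). Slc1a5 lost its call without MC 3 or any NC library (adjusted p 0.0656 to 0.0774). Shmt1 lost its call without MC 1 or any NC library (adjusted p 0.0533 to 0.0697). Mthfd2 lost its call without any MC library, any NC library or LRWE 3 (adjusted p 0.0516 to 0.133). Asns lost its call without any MC library or any NC library (adjusted p 0.0525 to 0.139).

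The BCL2 family and cell death genes had 3 of 40 higher and 3 lower, against 2.84% higher and 3.53% lower of all genes. Bcl2l1, which protects cells from apoptosis, had 63.1, 53.3 and 62.8 CPM in MC mice, against 25.1, 26.3 and 25.6 CPM in NC mice (log2 fold change 1.22 ± 0.13, adjusted p = 0.00428). Mcl1, another protective member, fell, with 233, 269.8 and 270.3 CPM in MC mice, against 564, 687 and 430.1 CPM in NC mice (log2 fold change -1.12 ± 0.20, adjusted p = 0.0176). The pair of protective genes thus changed in opposite directions, with no overlap between the groups. Ripk3, a kinase of necroptosis, had 30.2, 41.2 and 47.4 CPM in MC mice, against 12.4, 10.7 and 14.9 CPM in NC mice (log2 fold change 1.64 ± 0.28, adjusted p = 0.0133). Bok, a pore-forming member, had 22.6, 16.7 and 25.4 CPM in MC mice, against 91.3, 63.4 and 56.4 CPM in NC mice (log2 fold change -1.71 ± 0.30, adjusted p = 0.0149). The call of Bcl2l1 held in each of the 9 fits that left out 1 library. Mcl1 lost its call without MC 1, MC 3, NC 1 or NC 2 (adjusted p 0.0583 to 0.0734). Ripk3 lost its call without NC 1 or NC 2 (adjusted p 0.0697 to 0.0815). Bok lost its call without MC 1 or NC 1 (adjusted p 0.0516 to 0.06496).

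Transcripts of gut nerve cells were higher in the MC mice. In 36 genes of enteric neurons, the median log2 fold change was 1.97, and in 30 of the 36 all MC mice lay above all NC mice, against 19.5% of all genes tested. The edgeR fit to 9 libraries called 4 higher, and the fit to the 6 MC and NC libraries called 29. Summed levels were 3439, 5149 and 3277 CPM in MC libraries, against 893, 998 and 1189.8 CPM in NC libraries. Sst, the peptide somatostatin of neurons and endocrine cells, had 572, 286 and 424 CPM in MC mice, against 39.1, 45.2 and 41.01 CPM in NC mice (log2 fold change 3.35 ± 0.50, adjusted p = 0.00859). The peptide galanin, encoded by Gal, had 160.5, 64.9 and 58.3 CPM in MC mice, against 10.5, 10.5 and 14.7 CPM in NC mice (log2 fold change 2.99 ± 0.52, adjusted p = 0.0152). Calcb, a calcitonin gene-related peptide, had 17.8, 19.4 and 17.9 CPM in MC mice, against 4.42, 3.01 and 3.49 CPM in NC mice (log2 fold change 2.33 ± 0.46, adjusted p = 0.02204). All MC mice lay above all NC mice for these peptides. Cartpt, another neuropeptide, had 19.8, 25.5 and 21.6 CPM in MC mice, against 2.02, 3.31 and 2.36 CPM in NC mice (log2 fold change 3.12 ± 0.68, adjusted p = 0.0318). General nerve cell genes that were not called in the fit to 9 libraries lay apart as well. Uchl1 had 215, 239.6 and 194 CPM in MC mice, against 62.4, 62.5 and 81.9 CPM in NC mice (log2 fold change 1.65 ± 0.50, adjusted p = 0.0833). Snap25, of the synaptic vesicle machinery, had 156, 209 and 165 CPM in MC mice, against 36.7, 33.4 and 56.4 CPM in NC mice (log2 fold change 2.07 ± 0.71, adjusted p = 0.115). Both were chosen after their values were seen. Gfap, a filament protein of glia, had 73.3, 194 and 71.2 CPM in MC mice, against 5.26, 6.24 and 5.78 CPM in NC mice (log2 fold change 4.29 ± 0.51, adjusted p = 0.00461). It was the 1 of 20 glial genes called (11 higher and 1 lower with 6 libraries), and in 12 of the 20 all MC mice lay above all NC mice. Erbb3, a growth factor receptor that epithelium also makes, had 322, 175 and 275 CPM in MC mice, against 507, 502 and 319 CPM in NC mice (log2 fold change -0.78 ± 0.26, adjusted p = 0.108) and was not called. Smooth muscle, which holds the nerve plexus, had none of 32 genes called in edgeR with 9 libraries (2 higher and 1 lower with 6 libraries, 1 and 1 with DESeq2, and 3 higher and 3 lower at an unadjusted p under 0.05), and summed levels of 21816, 13825 and 13162 CPM in MC libraries, against 22011, 16825 and 15722 CPM in NC libraries. Whether the samples held different shares of the muscle wall was not tested. The call of Gfap held in each of the 9 fits that left out 1 library. Sst lost its call without NC 1 or NC 2 (adjusted p 0.05398 to 0.05604). Gal lost its call without any NC library (adjusted p 0.0529 to 0.0913). Calcb lost its call without MC 1, MC 3 or any NC library (adjusted p 0.0611 to 0.121). Cartpt lost its call without any MC library, any NC library or LRWE 3 (adjusted p 0.05602 to 0.135).

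Hormone and serotonin genes also changed. Of 33 enteroendocrine genes 5 rose and none fell in edgeR (12 rose and 3 fell with DESeq2), while the median log2 fold change of the list was -0.20. Cck, the peptide cholecystokinin, had 1.67, 2.03 and 5.398 CPM in MC mice, against 0.522, 0.446 and 0.286 CPM in NC mice (log2 fold change 2.85 ± 0.54, adjusted p = 0.0193). Nts, neurotensin, had 57.9, 1.81 and 31.9 CPM in MC mice, against 0.505, 0 and 0.476 CPM in NC mice (log2 fold change 6.55 ± 1.34, adjusted p = 0.0252), with MC 2 far below MC 1 and MC 3. Scg3, of the secretory granule, had 88.5, 76.2 and 88.04 CPM in MC mice, against 20.4, 22.3 and 25.6 CPM in NC mice (log2 fold change 1.89 ± 0.44, adjusted p = 0.04004), and it is also made by nerve cells. In the serotonin list 2 of 16 rose and 3 fell. Slc6a4, the transporter that clears serotonin, had 1.15, 2.45 and 1.56 CPM in MC mice, against 17.6, 26.7 and 22.8 CPM in NC mice (log2 fold change -3.70 ± 0.45, adjusted p = 0.004803). Ddc, the last enzyme of its synthesis, had 21.3, 21.3 and 26.9 CPM in MC mice, against 71.9, 92.4 and 67.4 CPM in NC mice (log2 fold change -1.74 ± 0.22, adjusted p = 0.00516). All MC mice were below all NC mice in both. Htr4, a serotonin receptor, had 0.722, 1.71 and 2.16 CPM in MC mice, against 11.4, 15.99 and 28.4 CPM in NC mice (log2 fold change -3.60 ± 0.58, adjusted p = 0.0113). Another receptor, Htr2c, had no count in NC and 1.24, 0.473 and 1.16 CPM in MC, at least 59.4-fold higher with NC set at 3 counts over its 3 libraries (adjusted p = 0.0179). The calls of Slc6a4, Ddc and Htr4 held in each of the 9 fits that left out 1 library. Cck lost its call without MC 3 or any NC library (adjusted p 0.0564 to 0.0923). Nts and Htr2c lost their calls without MC 1, MC 3 or any NC library (adjusted p 0.0519 to 0.103). Scg3 lost its call without any MC library, any NC library or LRWE 3 (adjusted p 0.0626 to 0.168).

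Transcription factors of the gut lining went both ways, with 2 of 36 higher and 5 lower, against 2.84% and 3.53% of all genes. Besides Isx, the higher one was Cdx2, a master factor of intestinal identity chosen after its values were seen, with 166, 38.2 and 192 CPM in MC mice, against 18.9, 30.1 and 21.2 CPM in NC mice (log2 fold change 2.50 ± 0.53, adjusted p = 0.0277). Sox9, of crypt cells, had 4.75, 6.89 and 6.06 CPM in MC mice, against 22.7, 22.6 and 24.6 CPM in NC mice (log2 fold change -1.98 ± 0.30, adjusted p = 0.009001). Myb, of proliferating crypt cells, had 11.9, 9.77 and 18.6 CPM in MC mice, against 41.03, 42.4 and 40.8 CPM in NC mice (log2 fold change -1.63 ± 0.24, adjusted p = 0.009001). Foxa2, of endoderm and secretory cells, had 2.41, 4.11 and 4.7001 CPM in MC mice, against 23.8, 28.6 and 29.6 CPM in NC mice (log2 fold change -2.87 ± 0.50, adjusted p = 0.0149). MC 2 lay just above the NC mice for Cdx2, with MC 1 and MC 3 far above. In the brush border list 3 of 36 rose and 3 fell, against the same shares of all genes. Tmigd1, an adhesion protein of microvilli, had 216, 17.6 and 214 CPM in MC mice, against 2.51, 2.84 and 7.89 CPM in NC mice (log2 fold change 5.08 ± 0.93, adjusted p = 0.017995). Alpi, intestinal alkaline phosphatase, had 53.5, 3.58 and 135 CPM in MC mice, against 0.783, 1.29 and 2.79 CPM in NC mice (log2 fold change 5.30 ± 1.11, adjusted p = 0.0271). MC 2 was the lowest MC mouse for both, above all NC mice. Slc5a1, the sodium-glucose transporter, had 55.9, 27.6 and 42.7 CPM in MC mice, against 111, 122 and 102 CPM in NC mice (log2 fold change -1.41 ± 0.26, adjusted p = 0.0184). Dpp4, a peptidase, had 12.8, 5.73 and 10.1 CPM in MC mice, against 24.9, 30.99 and 32.2 CPM in NC mice (log2 fold change -1.62 ± 0.35, adjusted p = 0.0289). The calls of Sox9 and Myb held in each of the 9 fits that left out 1 library. Cdx2 and Alpi lost their calls without MC 1, MC 3 or any NC library (adjusted p 0.0607 to 0.128). Foxa2 lost its call without MC 1 or any NC library (adjusted p 0.0514 to 0.0693). Tmigd1 lost its call without MC 3, NC 1 or NC 2 (adjusted p 0.0528 to 0.0934). Slc5a1 lost its call without MC 3 or any NC library (adjusted p 0.0522 to 0.0814). Dpp4 lost its call without MC 2, MC 3 or any NC library (adjusted p 0.0528 to 0.112).

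Markers of the proximal and the distal colon differed between the groups, and the segment taken is not stated. Of 33 Hox genes, 9 rose and none fell in edgeR, namely all genes from Hoxb2 to Hoxb8, Hoxd3 and Hoxd8 (8 rose and 4 fell with limma on log2(FPKM + 1)). In 15 of the 33 all MC mice lay above all NC mice and in 6 below, against 19.5% and 20.1% of all genes. The summed level of the Hox list was nevertheless lower in MC libraries, with 652, 585 and 716 CPM, against 871, 915 and 756 CPM in NC libraries. Hoxb5 had 92.98, 70.3 and 71.7 CPM in MC mice, against 15.2, 19.4 and 18.8 CPM in NC mice (log2 fold change 2.14 ± 0.20, adjusted p = 0.00224). Hoxb3 had 46.2, 32.5 and 37.4 CPM in MC mice, against 8.46, 8.77 and 11.5 CPM in NC mice (log2 fold change 2.01 ± 0.22, adjusted p = 0.00428). Hoxb4 had 15.9, 12.5 and 13.8 CPM in MC mice, against 3.38, 3.84 and 4.14 CPM in NC mice (log2 fold change 1.89 ± 0.22, adjusted p = 0.00443). The spread among the MC mice was small for these 3. Hoxb7 had 15.04, 3.76 and 9.03 CPM in MC mice, against 1.39, 0.861 and 1.09 CPM in NC mice (log2 fold change 3.05 ± 0.55, adjusted p = 0.0168). The others further along the cluster, Hoxb6 and Hoxb8, chosen after their values were seen, were high in MC 1 and MC 3 and lower in MC 2, and MC 2 stayed above all NC mice. Hoxb6 had 85.5, 11.6 and 46.9 CPM in MC mice, against 4.11, 4.15 and 4.55 CPM in NC mice (log2 fold change 3.49 ± 0.66, adjusted p = 0.0195). Hoxb8 had 34.3, 1.39 and 16.8 CPM in MC mice, against 1.29, 0.523 and 1.19 CPM in NC mice (log2 fold change 4.13 ± 0.97, adjusted p = 0.0401). Without a stated strand, reads of antisense transcripts in this cluster cannot be told from those of the genes. In the proximal colon list 7 of 19 genes were higher, 5 of them Hox genes, and 1 lower, with summed levels of 8037, 1854 and 7096 CPM in MC libraries, against 3047, 2388 and 2055 CPM in NC libraries. In the distal colon list 3 of 18 were lower and none higher in edgeR (1 higher with DESeq2), with summed levels of 812, 3029 and 2029 CPM in MC libraries, against 6293, 7189 and 4689.6 CPM in NC libraries. Slc37a2, a sugar-phosphate exchanger in the distal list, had 5.05, 33.04 and 6.36 CPM in MC mice, against 1042, 867 and 737 CPM in NC mice (log2 fold change -5.89 ± 0.77, adjusted p = 0.00568). A difference in the position sampled and an effect of DSS cannot be told apart here. The calls of Hoxb5, Hoxb3, Hoxb4 and Slc37a2 held in each of the 9 fits that left out 1 library. Hoxb7 lost its call without any NC library (adjusted p 0.0686 to 0.08604). Hoxb6 lost its call without MC 1, MC 3 or any NC library (adjusted p 0.0513 to 0.0964). Hoxb8 lost its call without MC 1, MC 3, any NC library or LRWE 3 (adjusted p 0.0675 to 0.157).

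Several of the genes above were high in MC 1 and MC 3 and close to the NC level in MC 2, among them Fabp2, Cyp2c65, Cdx2 and Hoxb8. Osr2, a transcription factor of the proximal list chosen after its values were seen, had 148, 2.12 and 37.9 CPM in MC mice, against 1.98, 1.03 and 0.682 CPM in NC mice (log2 fold change 5.67 ± 1.3, adjusted p = 0.0373). Slc51a, a subunit of the basolateral bile acid transporter, was called higher (log2 fold change 6.47 ± 1.57, adjusted p = 0.0446) although MC 2 lay below every NC mouse, with 174, 0.445 and 55.8 CPM in MC, against 1.201, 0.723 and 0.667 CPM in NC. Its partner Slc51b had 63.5, 31.4 and 56.7 CPM in MC mice, against 20.0004, 17.7 and 20.6 CPM in NC mice (log2 fold change 1.38 ± 0.26, adjusted p = 0.0191). MC 2 also had the lowest summed level of the proximal list of all 6 libraries. In contrast, Nos2, Steap4, Clca4b and Stat3 were highest in MC 2. Over the 618 genes called higher, MC 2 was nearest to NC among the MC mice in 260, MC 1 in 190 and MC 3 in 168, and MC 2 was farthest from NC in 234. Over the 768 genes called lower, MC 3 was nearest to NC in 305, MC 2 in 246 and MC 1 in 204. MC 2 was farthest from NC in 322 of them. Osr2 and Slc51a lost their calls without MC 1, MC 3, any NC library or LRWE 3 (adjusted p 0.0634 to 0.173). Slc51b lost its call without MC 1, MC 3 or any NC library (adjusted p 0.0611 to 0.0928).

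**Figure D3:**
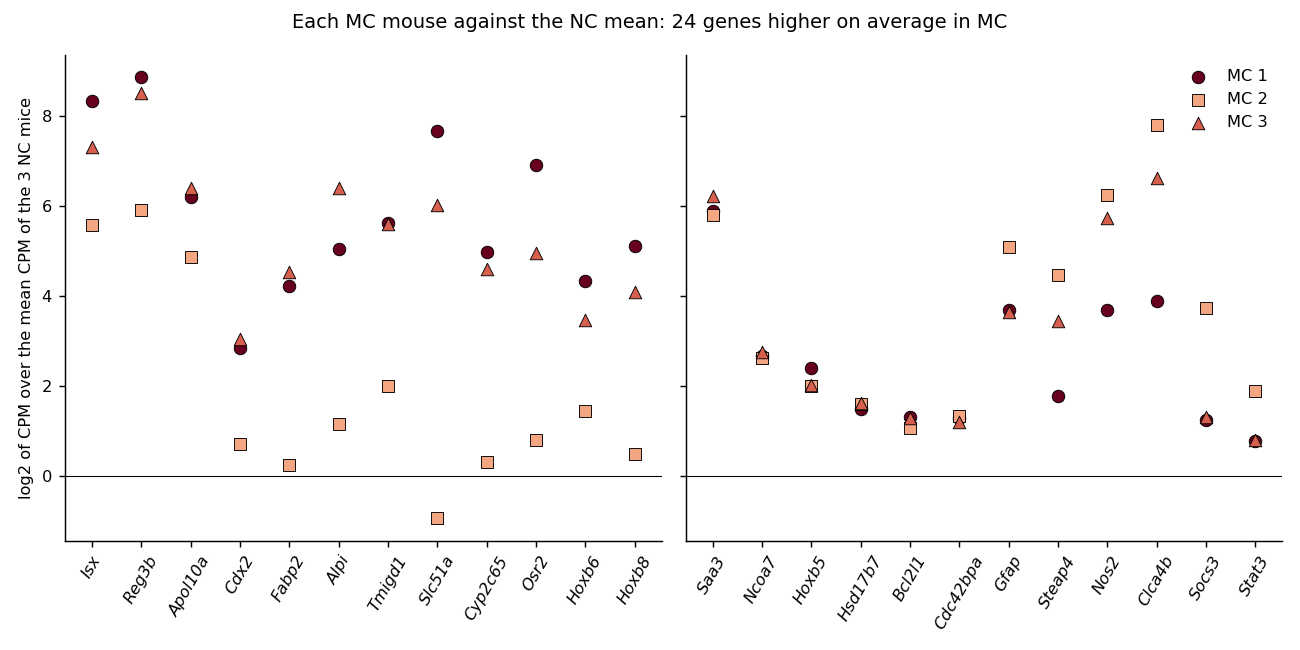
Each symbol is 1 MC mouse, placed by the log2 of its CPM over the mean CPM of the 3 NC mice, for 24 genes higher on average in MC; Socs3 was not called. The genes were chosen after their values were seen and grouped by this pattern. On the left, MC 2 (square) is the lowest for all 12 genes, and on the right the mice lie together or MC 2 is the highest.

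In the stroma, 2 genes of the hedgehog pathway fell. Besides Hhip, Gli1, the transcription factor and direct target of the pathway, had 3.41, 1.77 and 1.69 CPM in MC mice, against 21.5, 13.2 and 13.9 CPM in NC mice (log2 fold change -2.82 ± 0.43, adjusted p = 0.00976). Hhip is such a target as well, and both were low in every MC mouse. The hedgehog receptor Ptch1, also a target and chosen after its values were seen, had 17.5, 28.7 and 19.6 CPM in MC mice, against 44.1, 39.01 and 38.7 CPM in NC mice (log2 fold change -0.89 ± 0.24, adjusted p = 0.0618) and was not called. Tgfbi, a matrix protein induced by TGF-beta, had 190.4, 181 and 132 CPM in MC mice, against 86.7, 61.4 and 76.7 CPM in NC mice (log2 fold change 1.16 ± 0.23, adjusted p = 0.0237). Fst, which binds activins, had 20.6, 19.9 and 12.3 CPM in MC mice, against 3.88, 1.09 and 2.67 CPM in NC mice (log2 fold change 2.79 ± 0.67, adjusted p = 0.0424). In this list of 36 hedgehog, BMP and TGF-beta genes, 2 rose and 2 fell, against 2.84% higher and 3.53% lower of all genes. The median log2 fold change of the list was 0.01, so these members are given for their own values. Of 50 genes of fibroblast subtypes and niche factors 4 fell and none rose in edgeR (5 rose and 9 fell with DESeq2), against 3.53% lower and 2.84% higher of all genes. Bmp2, a ligand that holds back crypt growth, had 12.5, 41.1 and 22.1 CPM in MC mice, against 134, 124 and 99.1 CPM in NC mice (log2 fold change -2.24 ± 0.43, adjusted p = 0.0207). Pi16, a marker of an adventitial fibroblast, had 0.292, 1.63 and 0.764 CPM in MC mice, against 9.09, 8.53 and 11.6 CPM in NC mice (log2 fold change -3.44 ± 0.67, adjusted p = 0.0207). Sfrp2, a Wnt-binding protein, had 5.41, 2.49 and 4.04 CPM in MC mice, against 16.5, 11.3 and 10.6 CPM in NC mice (log2 fold change -1.69 ± 0.36, adjusted p = 0.0307). All MC mice lay below all NC mice in these 3. Cd34 had 6.91, 12.3 and 9.87 CPM in MC mice, against 30.4, 24.2 and 20.9 CPM in NC mice (log2 fold change -1.37 ± 0.30, adjusted p = 0.0327). The call of Gli1 held in each of the 9 fits that left out 1 library. Tgfbi lost its call without MC 1, MC 2 or any NC library (adjusted p 0.05003 to 0.1301). Fst lost its call without any MC library, any NC library or LRWE 3 (adjusted p 0.0712 to 0.156). Bmp2 and Pi16 lost their calls without MC 3 or any NC library (adjusted p 0.0529 to 0.0849). Sfrp2 lost its call without any MC library or any NC library (adjusted p 0.0513 to 0.133). Cd34 lost its call without MC 1, MC 3 or any NC library (adjusted p 0.0711 to 0.133).

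Of 40 collagen genes 3 fell and none rose in edgeR (4 rose and 3 fell with DESeq2), against 2.84% higher and 3.53% lower of all genes. The fit to the 6 MC and NC libraries called 9 higher and 3 lower, and the median log2 fold change of the list was 0.46. In 13 of the 40 all MC mice lay above all NC mice and in 5 below, against 19.5% and 20.1% of all genes. The called members were thus on the side opposite to the median. Col14a1 had 2.37, 4.15 and 2.34 CPM in MC mice, against 21.6, 15.2 and 14.9 CPM in NC mice (log2 fold change -2.55 ± 0.45, adjusted p = 0.0152). Col4a5, a chain of basement membrane collagen, had 11.6, 11.7 and 5.73 CPM in MC mice, against 39.1, 25.2 and 28.8 CPM in NC mice (log2 fold change -1.68 ± 0.31, adjusted p = 0.0179). Col4a6, its neighbour on the X chromosome and another chain, had 2.87, 1.64 and 0.399 CPM in MC mice, against 12.8, 9.53 and 9.06 CPM in NC mice (log2 fold change -2.67 ± 0.63, adjusted p = 0.0405). The groups lay apart in all 3. Of 42 matrix proteases and inhibitors 2 rose and none fell in edgeR, against 2.84% higher and 3.53% lower of all genes. With DESeq2 12 rose and 1 fell. Plaur, the urokinase receptor, had 16.02, 29.2 and 41.1 CPM in MC mice, against 3.36, 3.11 and 4.49 CPM in NC mice (log2 fold change 2.98 ± 0.64, adjusted p = 0.0291). Serpine2, an inhibitor of serine proteases, had 63.04, 78.4 and 65.7 CPM in MC mice, against 16.01, 19.7 and 21.9 CPM in NC mice (log2 fold change 1.85 ± 0.44, adjusted p = 0.0422). In 19 of the 42 all MC mice lay above all NC mice, against 19.5% of all genes. Col14a1 lost its call without MC 1, MC 3, NC 1 or NC 2 (adjusted p 0.0528 to 0.0722). Col4a5 lost its call without NC 1 or NC 3 (adjusted p 0.0533 to 0.0798). Col4a6 lost its call without MC 2, MC 3, any NC library or LRWE 3 (adjusted p 0.0513 to 0.139). Plaur lost its call without MC 2, MC 3 or any NC library (adjusted p 0.0515 to 0.133). Serpine2 lost its call without any MC library, any NC library or LRWE 3 (adjusted p 0.0712 to 0.166).

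Immune cell lists had few calls at this spread, where 2.84% of all genes tested were called higher and 3.53% lower. None of 22 neutrophil genes was called in edgeR with 9 libraries (3 higher with the 6 MC and NC libraries, 5 with DESeq2, and 5 higher and 0 lower at an unadjusted p under 0.05). The median log2 fold change was 1.53, with summed levels of 476, 763 and 406 CPM in MC libraries, against 464, 316 and 218 CPM in NC libraries. Slfn4, a gene of myeloid cells, had 449, 433 and 315 CPM in MC mice, against 229, 90.3 and 65.001 CPM in NC mice (log2 fold change 1.64 ± 0.42, adjusted p = 0.0518). Ly6g, a neutrophil surface protein, had 16.4, 234 and 55.4 CPM in MC mice, against 225, 218 and 139.95 CPM in NC mice (log2 fold change -0.93 ± 0.86, adjusted p = 0.567). These 2 genes hold most of the sum, and neither was called. The calprotectin subunit S100a9, chosen after its values were seen, had 0.399, 7.84 and 5.48 CPM in MC mice, against 0, 0 and 0.0952 CPM in NC mice (log2 fold change 7.07 ± 1.79, adjusted p = 0.0511), low in all 6 libraries. Of 31 neutrophil genes of the table, 4 had no count in any MC library, Mpo among them, and 6 had none in any NC library. Macrophages had 1 of 34 lower and none higher, T cells and cytotoxic lymphocytes 1 of 44 higher and 1 lower, and B cells none of 25 in edgeR with 9 or 6 libraries or with DESeq2 (0 higher and 0 lower at an unadjusted p under 0.05). Inflammatory cytokines had none of 30 called in edgeR with 9 libraries (2 higher and 2 lower with 6, 3 and 2 with DESeq2, 4 and 2 at an unadjusted p under 0.05). Interferon-stimulated genes had 1 of 56 higher and 1 lower in edgeR, with a median log2 fold change of 0.47. With DESeq2 8 of them were higher and 1 lower, and 9 were higher and 2 lower at an unadjusted p under 0.05 in edgeR. Plasma cell genes had 3 of 26 lower and 1 higher, with summed levels of 1199, 1973 and 1736 CPM in MC libraries, against 2895, 4552 and 5057 CPM in NC libraries. Jchain, which joins antibody units, had 10.3, 36.2 and 22.5 CPM in MC mice, against 179.6, 369.7 and 469 CPM in NC mice (log2 fold change -3.88 ± 0.60, adjusted p = 0.00995). Cd38, which plasma cells share with other cells, rose, with 296, 554 and 402 CPM in MC mice, against 132, 125 and 114 CPM in NC mice (log2 fold change 1.76 ± 0.29, adjusted p = 0.0131). Of 108 immunoglobulin segments 9 were lower (8.33%) and none higher, with a median log2 fold change of -3.76. Hemoglobin and platelet genes, which mark blood in the sample, summed to 98.8, 128 and 163 CPM in MC libraries, against 67.2, 66.7 and 70.5 CPM in NC libraries. The call of Jchain held in each of the 9 fits that left out 1 library. Cd38 lost its call without any NC library (adjusted p 0.0572 to 0.0651).

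**Figure D4:**
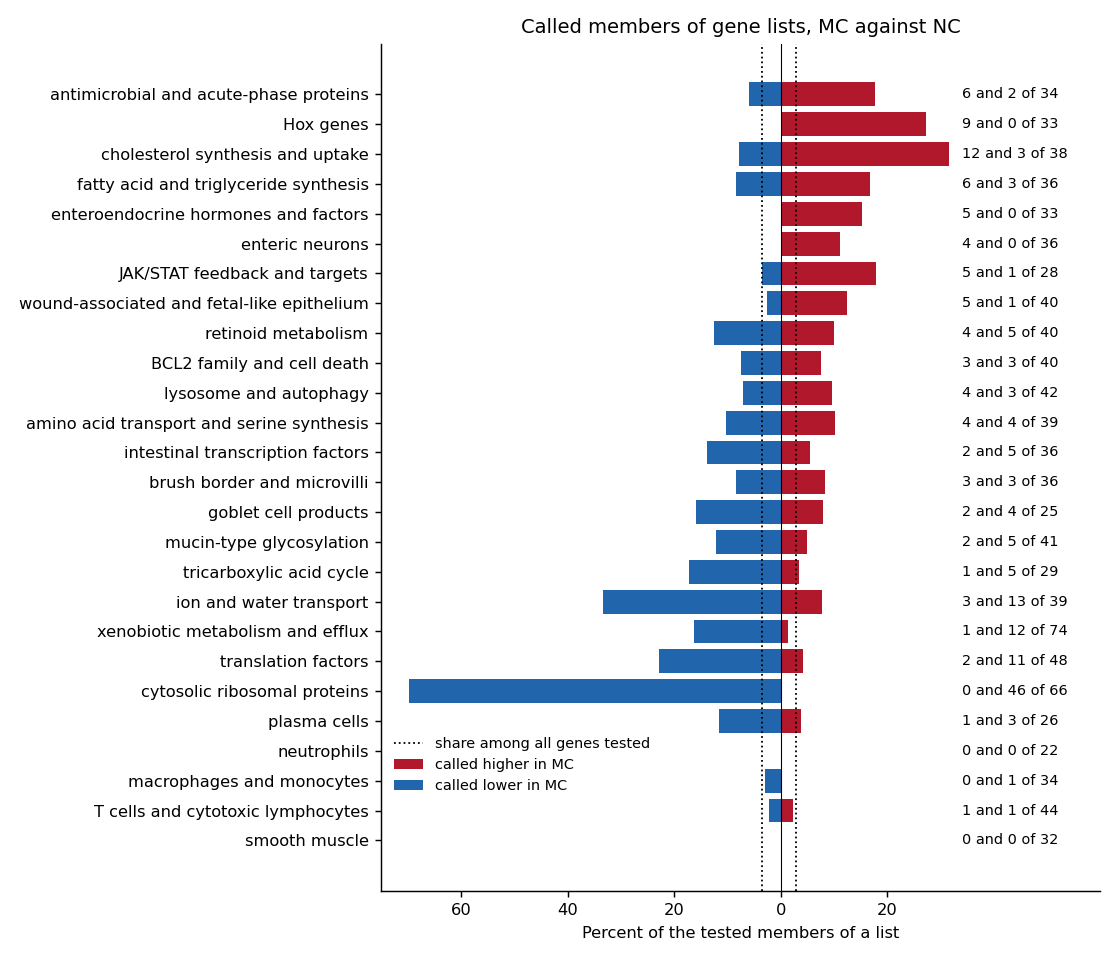
Bars give the percent of tested members called higher (right, red) and lower (left, blue) in MC for 26 gene lists, with the counts at the right edge and the share among all genes tested as dotted lines (2.84% higher, 3.53% lower). Among the 26 lists, cytosolic ribosomal proteins have the largest share on the lower side (46 of 66) and cholesterol synthesis and uptake the largest on the higher side (12 of 38). The proximal colon list, which is not drawn, has a larger share on the higher side (7 of 19).

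**Figure D5:**
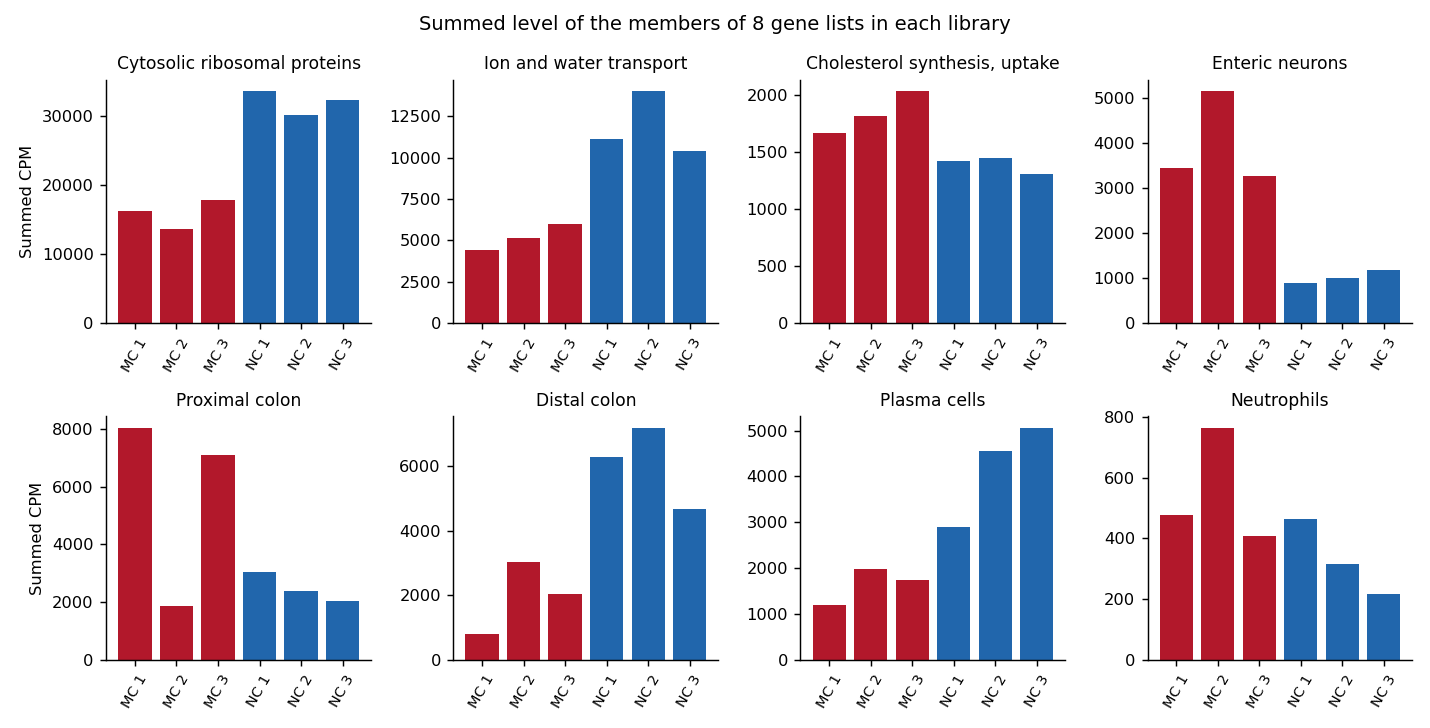
Bars give the summed CPM of the members of 8 gene lists in each library, MC 1 to MC 3 left and NC 1 to NC 3 right. Ribosomal proteins, ion transport, distal colon and plasma cell sums are lower and enteric neuron and cholesterol sums higher in all MC libraries, while MC 2 leaves the other MC libraries in the proximal colon sum and NC 1 lies between the MC libraries in the neutrophil sum.

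JAK/STAT genes were read at the RNA level alone. Of the 11 core kinases and factors, Stat3 was called, with 128, 275 and 130.03 CPM in MC mice, against 81.8, 73.6 and 69.3 CPM in NC mice (log2 fold change 1.25 ± 0.31, adjusted p = 0.0488), and MC 2 was the highest. Jak1 had 100.2, 142 and 87.6 CPM in MC mice, against 102, 105 and 91.7 CPM in NC mice (log2 fold change 0.14 ± 0.18, adjusted p = 0.697). Jak2 had 51.6, 63.8 and 60.4 CPM in MC mice, against 70.4, 80.9 and 67.2 CPM in NC mice (log2 fold change -0.31 ± 0.15, adjusted p = 0.231). Neither passed the test, and the groups overlapped for Jak1. Of 28 feedback genes and targets 5 rose and 1 fell, against 2.84% higher and 3.53% lower of all genes. Socs3 had 31.996, 179.6 and 33.3 CPM in MC mice, against 9.38, 12.6 and 18.9 CPM in NC mice (log2 fold change 2.58 ± 0.72, adjusted p = 0.0678), above the NC mice in every MC mouse, by far the most in MC 2, and it was not called. Pim1, a kinase induced by STAT factors, had 25.04, 43.05 and 24.7 CPM in MC mice, against 14.3, 9.93 and 13.3 CPM in NC mice (log2 fold change 1.31 ± 0.25, adjusted p = 0.0213). Il4ra, the receptor chain for IL-4 and IL-13, had 86.8, 90.4 and 78.2 CPM in MC mice, against 29.8, 26.1 and 41.1 CPM in NC mice (log2 fold change 1.40 ± 0.25, adjusted p = 0.0161). The remaining called members were Bcl2l1 and Mcl1, given above, with Socs7 (log2 fold change 1.07 ± 0.22, adjusted p = 0.0253) and Bcl3 (log2 fold change 1.66 ± 0.41, adjusted p = 0.0459), chosen after their values were seen. Stat3 lost its call without any MC library, any NC library or LRWE 3 (adjusted p 0.0598 to 0.161). Pim1 lost its call without any NC library (adjusted p 0.0724 to 0.0913). Il4ra lost its call without MC 1, NC 1 or NC 2 (adjusted p 0.0516 to 0.0958). Socs7 lost its call without any MC library or any NC library (adjusted p 0.0594 to 0.118). Bcl3 lost its call without MC 2, MC 3, any NC library or LRWE 3 (adjusted p 0.0608 to 0.162).

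Among 55 cytokine receptors 1 rose and 3 fell, a share of calls close to the 6.37% of all genes. The members that fell are given for their own values. Ifngr1, a chain of the interferon-gamma receptor, had 121, 162 and 137 CPM in MC mice, against 321, 343 and 235 CPM in NC mice (log2 fold change -1.10 ± 0.19, adjusted p = 0.0133). Lifr, a receptor of the IL-6 family, had 9.49, 11.8 and 11.03 CPM in MC mice, against 43.3, 41.4 and 39.2 CPM in NC mice (log2 fold change -1.94 ± 0.46, adjusted p = 0.0414). Il22ra2, a soluble binder of IL-22, had 0.492, 1.53 and 0.581 CPM in MC mice, against 3.48, 5.21 and 13.9 CPM in NC mice (log2 fold change -3.11 ± 0.76, adjusted p = 0.0462). The groups lay apart for each of the fallen receptors. Ifngr1 lost its call without MC 1, MC 3, NC 1 or NC 2 (adjusted p 0.0528 to 0.0656). Lifr lost its call without any MC library, any NC library or LRWE 3 (adjusted p 0.0634 to 0.1398). Il22ra2 lost its call without MC 1, MC 3, any NC library or LRWE 3 (adjusted p 0.07303 to 0.163).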

How the data were processed

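Colon RNA of 3 MC and 3 NC mice was sequenced after poly(A) selection. The deposited table, made by the authors, holds a count and an FPKM value per gene and mouse for 36256 genes. Per the submitters' processing notes, reads were trimmed with cutadapt 1.9 and processed with HISAT2 2.0.4, StringTie 1.3.4d and edgeR. Those notes name a human build, hg38, for a table of mouse identifiers, so the build of the alignment is uncertain and no coordinates of the table are printed. The labels do not say how strand and reads that match several genes were handled. The deposited count values are whole numbers and were taken to be estimated counts rounded by the authors. The deposited FPKM values, scaled by the authors to length and library, served 2 alternatives with limma 3.58.1 on log2(FPKM + 1) and log2(FPKM + 0.1).

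Genes were kept with filterByExpr and tested with the quasi-likelihood test of edgeR 4.0.16 in R 4.3.3, on TMM-scaled counts of all 9 libraries with 1 mean per group. The contrast was MC minus NC, and p-values were adjusted by Benjamini-Hochberg over 21767 genes. The standard error is the log2 fold change divided by the root of F. The labels state 1 mouse per library. The test was tried on simulated counts with known changes. Those counts were drawn with the same spread in all libraries, so the trial does not cover libraries of uneven quality. No result here rests on it. Alternatives were DESeq2 1.42.0, voom with quality weights, other scalings and filters, the 6 libraries alone, a replicate block and leaving out each library.

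Gene lists (89, of which 41 are described one by one in the report or its closing section) and the members shown were chosen with earlier results of these data known. The genes named are, in each direction, the 12 called genes with the largest difference in CPM and the 12 with the smallest p, up to 4 called members of each described list (the 2 most abundant where fewer than 2 passed), and Jak1, Jak2, Stat3 and Socs3. A few genes that this rule names are not reported here. Predicted genes and antigen receptor segments were left out, and any other gene is said to be chosen after its values were seen. Of 2753 listed symbols 2697 matched the table by name and 3 through RefSeq synonyms. Library totals of 59771026 to 64202896 counts in MC and NC limit the precision of low genes, and floors of 3 counts cover counting error only.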

Additional observations from a re-analysis of the deposited data

How the results depend on the processing

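The counts of genes called higher and lower stayed within 1.5 times the 618 and 768 reported with RLE, library totals or upper quartile scaling, without mitochondrial genes, and with 2 other filters on low counts. They were 2197 and 1584 in the fit to the 6 MC and NC libraries, 2009 and 1745 with DESeq2, and 2714 and 2491 with voom and quality weights. With limma on log2(FPKM + 1) they were 1228 and 1146, and on log2(FPKM + 0.1) 928 and 964. Leaving out 1 library gave 101 to 1920 higher and 176 to 1398 lower, least without NC 2 or NC 1 and most without LRWE 2. Of the 1386 calls, 1383 were shared by the 6-library fit, 1382 by DESeq2 and 271 by the fit without NC 1. The cause was not tested.

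The replicate block gave 113 higher and 193 lower. The labels do not say whether mice with the same replicate number share anything. Deviations of MC and NC mice with the same number correlated at 0.0313, -0.0297 and -0.0417, and those with different numbers between -0.0691 and 0.0955. With 3 mice a group these correlations cannot show whether the numbers stand for a shared batch. Of 167 genes named by rule, 76 lost their call under the block and 79 without NC 1. Direction reversed for 3 that were not called. The log2 fold change of Cox4i1 was -0.0426 without MC 1 and -0.0305 without MC 3, within a range of -0.0426 to 0.335 over the fits without 1 library. That of Cox6a1 was -0.0986 without MC 3 (range -0.0986 to 0.219), and the log2 fold change of Jak1 was -0.0230 with voom and -0.0781 without MC 2 (range -0.0781 to 0.280).

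With 3 mice a group the median 95% interval of a log2 fold change was ± 0.94, so smaller differences were mostly not detectable, and 0.576% of genes under 1 CPM were called, against 17.0% over 100 CPM.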

Other observations

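Gene groups not described above gave the following values, and the genes named here were chosen after their values were seen. Of 36 genes of glycolysis and the response to low oxygen, 3 were called higher and none lower in edgeR (12 and 1 with DESeq2), and in 13 all MC mice lay above all NC mice, against 19.5% of all genes. Slc16a3, which exports lactate, had 16.9, 27.2 and 47.6 CPM in MC mice, against 7.59, 10.3 and 5.09 CPM in NC mice (log2 fold change 2.00 ± 0.44, adjusted p = 0.0336). Ndrg1, a stress gene induced by low oxygen, had 305, 161 and 456 CPM in MC mice, against 72.8, 91.02 and 97.1 CPM in NC mice (log2 fold change 1.82 ± 0.36, adjusted p = 0.02299). Ero1a, an oxidase of the endoplasmic reticulum that the same signal induces, had 71.3, 108 and 109.96 CPM in MC mice, against 45.2, 40.4 and 37.1 CPM in NC mice (log2 fold change 1.24 ± 0.24, adjusted p = 0.0202). MC 3 was the highest mouse for all 3, and no NC mouse reached an MC mouse. Of 23 genes of zinc transport and metallothioneins, 3 importers rose and none of the list fell in edgeR (5 rose with DESeq2), Slc39a4 with 234, 122 and 232 CPM in MC mice, against 65.7, 70.2 and 53.2 CPM in NC mice (log2 fold change 1.64 ± 0.30, adjusted p = 0.0179), Slc39a14, given above, and Slc39a6 with 31.6, 47.8 and 26.5 CPM in MC mice, against 12.3, 12.4 and 13.7 CPM in NC mice (log2 fold change 1.46 ± 0.37, adjusted p = 0.0498). Slc16a3 lost its call without MC 2, MC 3 or any NC library (adjusted p 0.0523 to 0.1303). Ndrg1 and Slc39a4 lost their calls without MC 1, MC 3 or any NC library (adjusted p 0.0586 to 0.109). Ero1a lost its call without MC 3 or any NC library (adjusted p 0.0712 to 0.102). Slc39a6 lost its call without any MC library, any NC library or LRWE 3 (adjusted p 0.07998 to 0.189).

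Among genes of wound-associated and fetal-like epithelium 5 of 40 rose and 1 fell, against 2.84% higher and 3.53% lower of all genes. Besides Emp1 and Plaur, Sprr1a, a protein of the cornified cell border, had 21.8, 22.4 and 64.6 CPM in MC mice, against 2.16, 2.45 and 2.11 CPM in NC mice (log2 fold change 4.02 ± 0.76, adjusted p = 0.0194). The integrin chains Itga2 and Itga3 rose by 2.31 ± 0.42 and 0.90 ± 0.18 on the log2 scale (adjusted p = 0.0171 and 0.0234), while Lama3, a chain of their laminin ligand, had 47.2, 29.4 and 62.9 CPM in MC mice, against 205, 173 and 88.2 CPM in NC mice (log2 fold change -1.74 ± 0.36, adjusted p = 0.0272). The integrin chains were thus higher and the laminin chain lower in all MC mice than in all NC mice. Of 66 cell cycle and replication genes 1 fell and none rose in edgeR (8 fell and 1 rose with DESeq2), against 3.53% lower and 2.84% higher of all genes. Their median log2 fold change was -0.42. None of 17 MHC class II genes was called in edgeR (2 lower with DESeq2, 0 higher and 3 lower at an unadjusted p under 0.05). Sprr1a lost its call without MC 3 or any NC library (adjusted p 0.0568 to 0.0964). Itga2 and Itga3 lost their calls without MC 1, MC 3 or any NC library (adjusted p 0.0524 to 0.09599). Lama3 lost its call without MC 1, MC 2, NC 1 or NC 2 (adjusted p 0.0564 to 0.112).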
